A study of Caenorhabditis elegans with 4 samples.

Results

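The *pals* family of *C. elegans* was described here in RNA-seq data from wild-type animals (Bristol strain N2) that were fed 1 of 2 bacteria. The members were all genes whose symbol begins with *pals-* in the WBcel235 annotation (Ensembl release 115), without regard to their expression. The annotation holds 38 such genes and the count table lists 37 of them, out of 46745 sequence names in all; *pals-21* was not analysed here. One food was *E. coli* OP50, the standard laboratory diet (2 samples), and the other was the lactic acid bacterium *L. paracasei* subsp. *paracasei* 2004 (2 samples). According to the labels, feeding lasted 3 days, began 3 days after hatching and took place in S basal medium, whereas the study's methods describe NGM plates. All animals carried the wild-type genotype, RNA was taken from the entire body, and the methods give pools of many animals per sample. Nothing states that the 2 samples of a food came from separate cultures, so the p-values below measure the spread between these samples, which may be technical. In whole animals, fewer cells of a type and less RNA per cell cannot be told apart.

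The family is named for the ALS2CR12 signature that its proteins share, and it has expanded in *C. elegans*, whereas mammals do not carry such an array of copies. Many *pals* genes are targets of the intracellular pathogen response, the transcriptional programme that the worm's intestine and epidermis mount against microsporidia and the Orsay virus. A few members instead control this programme: *pals-22* holds it down and *pals-25* promotes it, and *pals-17* and *pals-16* with *pals-20* form a second pair of opposing regulators. *pals-5* is the gene whose promoter is used in the standard reporter of the response. The comparison of 2004 with OP50 asked how these targets and regulators stood when the animals' food was changed.

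Most of the family was close to the limit of detection on either food. The samples held between 44548901 and 50504029 estimated counts, and a count of 0 allowed up to 3 counts, or between 0.0594 and 0.0673 CPM (each count relative to the total of its library, scaled to a total of 1e6), which covers counting error only. Of the 37 listed members, 7 had 0 counts in all 4 samples, 21 others did not reach 0.5 CPM in at least 2 samples and were not tested, and 9 were tested. The share tested was 24.3%, beside 60.9% of the 19642 listed protein-coding genes. The highest count of an untested member in any sample was 40, or 0.792 CPM. At least 1 count was found for 20 and 27 members in the OP50 samples and for 19 and 14 members in the 2004 samples. Among all sequence names, 15895 and 17222 had a count with OP50 and 15956 and 15734 with 2004, so OP50 replicate 2, the deepest library, had the most detected names both in the family and overall.

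**Figure D1:**
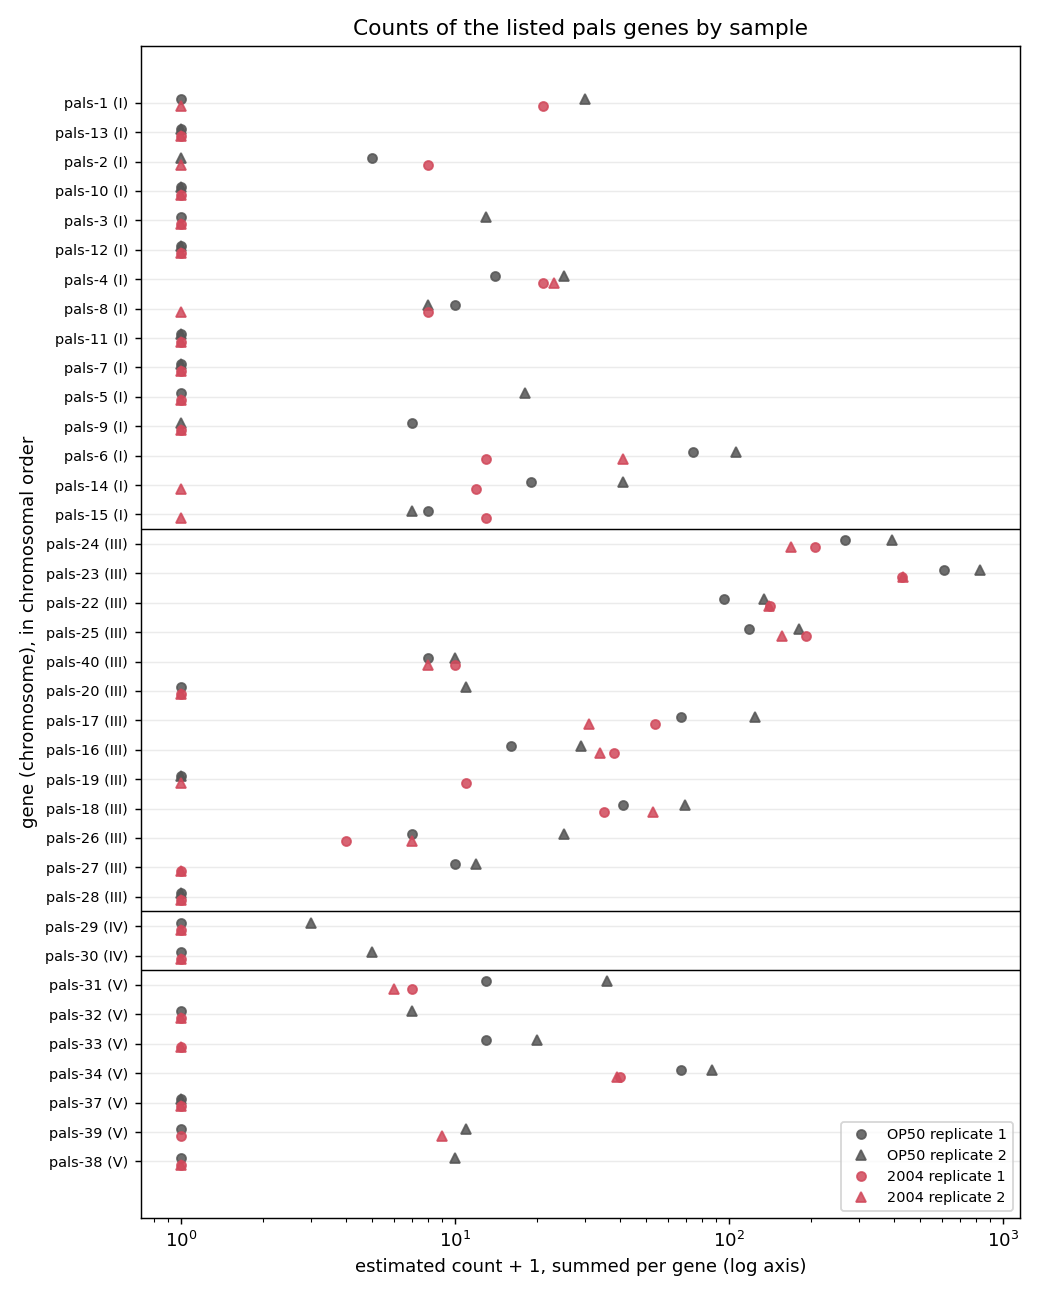
Estimated counts plus 1 (log axis) of the 37 listed *pals* genes in each of the 4 samples, in chromosomal order, with horizontal lines between chromosomes; grey symbols are OP50 and red symbols 2004, circles replicate 1 and triangles replicate 2. The genes with more than 100 counts in every 2004 sample are *pals-22*, *pals-23*, *pals-24* and *pals-25* on chromosome III, and most genes of chromosome I lie at or near 0.

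None of the tested members was upregulated and 2 were downregulated in edgeR's quasi-likelihood test. The thresholds were a Benjamini-Hochberg adjusted p of 0.1 and a 2-fold difference. At an unadjusted p-value under 0.05, 0 members were higher in animals fed 2004, and DESeq2 and limma-voom also called 0 members higher. Among all 12505 tested genes, 7.55% were called higher and 14.8% lower, so 2 of 9 members called lower lies near the background. Without a threshold on the fold change, 5 of the 9 were lower at an adjusted p-value under 0.1 and 0 were higher, where 25.2% and 23.9% of all tested genes were. The median log2 fold change of the 9 genes was -0.74, beside -0.028 over all tested genes. In 5 of the 9 genes both 2004 samples lay below both OP50 samples in CPM, and in 2 both lay above, where the background is 33.7% and 37.5%. The 9 genes passed a filter on their own counts and do not stand for the 28 members that did not.
Summed over the 37 genes, the family had 32.5 and 43.9 CPM in the OP50 samples and 26.8 and 24.5 CPM in the 2004 samples. All the 2004 values thus lay below all the OP50 values, but the OP50 samples differed from each other by more than OP50 replicate 1 did from 2004 replicate 1. The ratio of the means, 2004 over OP50, was 0.673, and it was 0.790 without OP50 replicate 2. With 2 samples against 2, an exact permutation test cannot give a two-sided p-value under 0.333, so this ratio was not tested. *pals-23* and *pals-24* alone held between 50.9% and 60.2% of the family's counts in each sample. Without these 2 genes the ratio was 0.757.

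**Figure D2:**
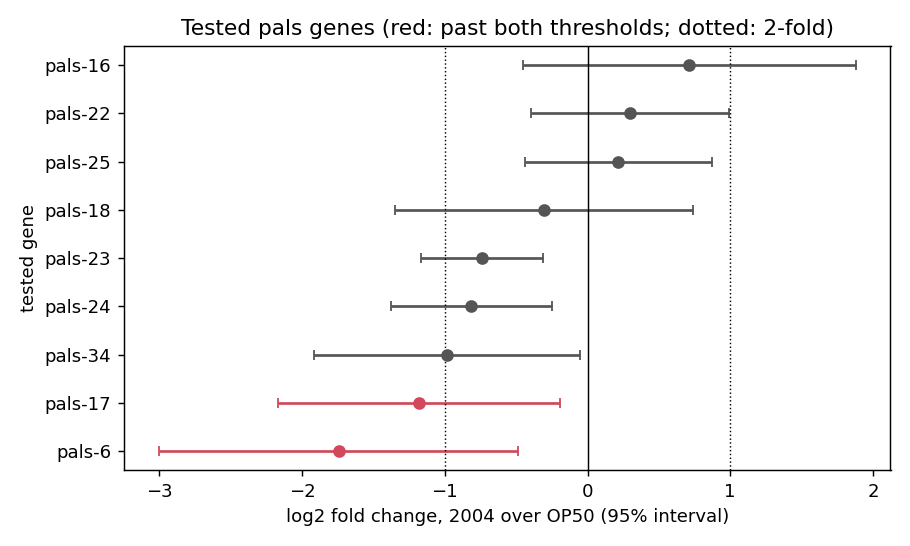
Log2 fold change of the 9 tested *pals* genes, 2004 over OP50, with the 95% interval from the quasi-likelihood fit (n = 2 samples per food); red points passed both thresholds and dotted lines mark 2-fold. The estimates run from -1.74 for *pals-6* to 0.71 for *pals-16*, and the intervals of *pals-16*, *pals-18*, *pals-22* and *pals-25* include 0.

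The repressor and activator of the pathogen response did not differ between the foods beyond the spread of the samples. *pals-22* (C29F9.1, chromosome III, 132418 to 134401, + strand) and *pals-25* (T17A3.2, chromosome III, 134494 to 137975, + strand) follow each other on the same strand, with 92 bases between their annotated ends. *pals-22*, the repressor, had 2.13 and 2.63 CPM in the OP50 samples and 3.04 and 3.00 CPM in the 2004 samples. The 2004 samples lay above the OP50 samples, but the log2 fold change of 0.30 ± 0.31 (SE) had a 95% interval from -0.40 to 0.99 and an adjusted p-value of 0.473 (edgeR). *pals-25*, the activator, had 2.65 and 3.56 CPM in the OP50 samples and 4.10 and 3.37 CPM in the 2004 samples, so the groups overlapped. Its log2 fold change was 0.22 ± 0.29 (SE, 95% interval from -0.43 to 0.87, edgeR adjusted p = 0.581). A 2-fold change in either direction lay outside the interval of both genes. The count of *pals-25* divided by that of *pals-22* was 1.24 and 1.35 with OP50 and 1.35 and 1.12 with 2004, so the ratios of the foods overlapped.

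Upstream of this pair on the same strand lie *pals-24* (C29F9.4, chromosome III, 120435 to 124690) and *pals-23* (C29F9.3, chromosome III, 124778 to 127971), with 87 bases between them and 4446 bases from *pals-23* to *pals-22*. They had the most counts of the family and were both lower with 2004, by less than 2-fold. *pals-23* had 13.7 and 16.3 CPM in the OP50 samples and 9.23 and 9.32 CPM in the 2004 samples. The groups did not overlap, and the log2 fold change was -0.74 ± 0.19 (SE, edgeR adjusted p = 0.0132), or 1.67-fold lower. *pals-24* had 5.93 and 7.76 CPM in the OP50 samples and 4.42 and 3.63 CPM in the 2004 samples, again without overlap. Its log2 fold change was -0.81 ± 0.26 (SE, edgeR adjusted p = 0.0285), or 1.76-fold lower. The adjusted p-value of *pals-24* was above 0.1 without OP50 replicate 2 (0.102) and without 2004 replicate 2 (0.142), and that of *pals-23* was between 0.0131 and 0.0904 with any 1 sample left out.
Because these 4 genes were counted in the same libraries, their ratio within a sample does not depend on how the samples are scaled. The summed count of *pals-23* and *pals-24* divided by that of *pals-22* and *pals-25* was 4.09 and 3.89 with OP50 and 1.91 and 2.03 with 2004. The values of each food lay close together and the foods did not overlap. In CPM the 1st sum was already lower and the 2nd already higher in both 2004 samples. The ratio therefore had to separate the foods and is no further evidence, and 2 samples against 2 allow no smaller exact permutation p-value than 0.333. Per kb of exonic length the order over all samples was *pals-23* (8.16 CPM per kb), *pals-24* (5.37 CPM per kb), *pals-25* (3.19 CPM per kb) and *pals-22* (3.03 CPM per kb). *pals-25* and *pals-22* were not separated in this order. The next levels were those of *pals-17* (1.65 CPM per kb) and *pals-34* (1.61 CPM per kb), which were not separated either.

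**Figure D3:**
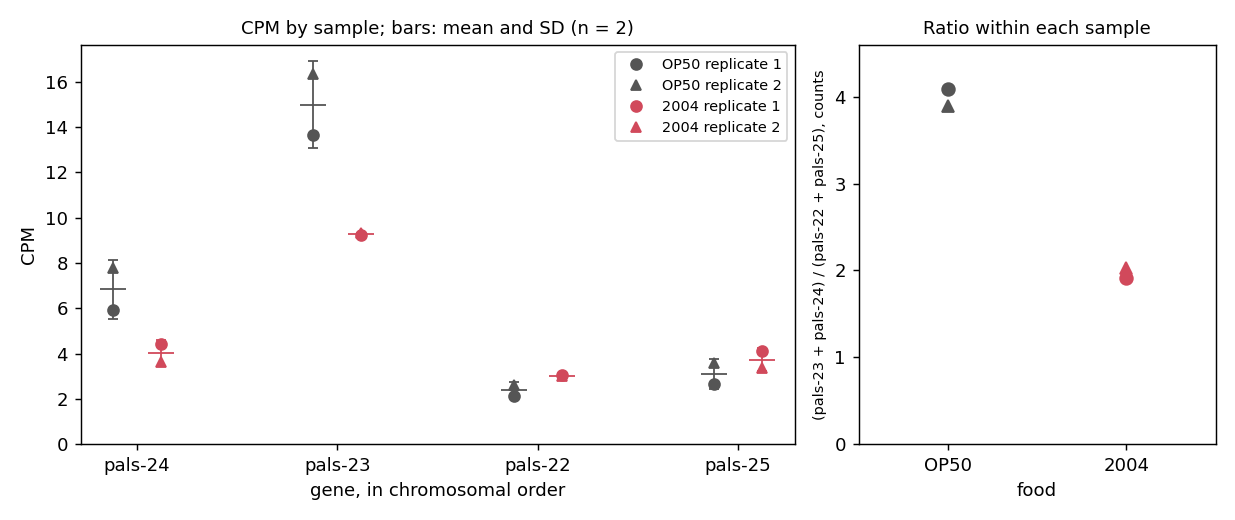
CPM of *pals-24*, *pals-23*, *pals-22* and *pals-25* in each sample (left; horizontal marks and bars are the mean and SD, n = 2 per food), and the ratio of the summed counts of *pals-23* and *pals-24* to those of *pals-22* and *pals-25* within each sample (right). *pals-23* and *pals-24* are lower with 2004, *pals-22* and *pals-25* are not, and the ratio is near 4.09 and 3.89 with OP50 and near 1.91 and 2.03 with 2004.

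*pals-23* was the 1 tested member with several listed transcripts. C29F9.3a.1 had 7.97 and 9.42 CPM with OP50 and 4.88 and 6.91 CPM with 2004, and C29F9.3a.2 had 4.78 and 5.66 CPM with OP50 and 3.41 and 2.07 CPM with 2004. The values of both transcripts were thus lower with 2004, although neither passed the test per transcript (adjusted p = 0.276 and 0.158, edgeR). C29F9.3c had between 4 and 36 counts and C29F9.3b between 10 and 27. StringTie divides reads among overlapping transcripts, so the sum per gene is the less uncertain value.

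A second group of regulators lies at another place on chromosome III, and its repressor fell. *pals-17* (Y82E9BR.13, chromosome III, 1390450 to 1391852, - strand), which holds the pathogen response down, had 1.48 and 2.46 CPM in the OP50 samples and 1.14 and 0.647 CPM in the 2004 samples. Both 2004 samples lay below both OP50 samples. The log2 fold change was -1.18 ± 0.45 (SE, edgeR adjusted p = 0.0565), or 2.27-fold lower. It rested on between 30 and 124 counts per sample, and the call was lost without OP50 replicate 2 (adjusted p = 0.202), without 2004 replicate 2 (adjusted p = 0.244) and when samples were scaled by their library size, without TMM (adjusted p = 0.1001).
*pals-16* (Y82E9BR.4, chromosome III, 1399970 to 1401401, + strand), which promotes the response, had 0.337 and 0.554 CPM in the OP50 samples and 0.798 and 0.712 CPM in the 2004 samples. The 2004 samples were the higher, but the log2 fold change of 0.71 ± 0.53 (SE) had a 95% interval from -0.45 to 1.88 and did not pass the test (adjusted p = 0.301, edgeR). The count of *pals-17* divided by that of *pals-16* was 4.40 and 4.43 with OP50 and 1.43 and 0.909 with 2004. The foods did not overlap in this ratio, which rested on as few as 15 counts of *pals-16*. Because *pals-17* was lower and *pals-16* higher in both 2004 samples, the ratio had to separate the foods and is no further evidence.
*pals-20* (Y82E9BR.25), the partner of *pals-16*, had 10 counts in OP50 replicate 2 and 0 in the other samples. A change in *pals-20* was therefore not detectable at this depth, and 502 of its 988 exonic bases overlap exons of Y82E9BR.5 on the opposite strand. *pals-18* (Y82E9BR.21) had 0.898 and 1.35 CPM with OP50 and 0.734 and 1.12 CPM with 2004. Its groups overlapped, with a log2 fold change of -0.30 ± 0.47 (SE, edgeR adjusted p = 0.632), and 0.034 without 2004 replicate 1. *pals-40* had between 7 and 9 counts in each sample, and *pals-19*, which overlaps *pals-18* by 53 exonic bases on the same strand, had 10 counts in 2004 replicate 1 and 0 in the others.

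The largest fall among the tested members was that of *pals-6*, in the group of chromosome I that holds the reporter gene *pals-5*. *pals-6* (C17H1.7, chromosome I, 13136390 to 13138544, - strand) had 1.64 and 2.08 CPM in the OP50 samples and 0.259 and 0.863 CPM in the 2004 samples. The counts behind these values were 73 and 105 with OP50 and 12 and 40 with 2004, so the 2004 samples were both lower but differed from each other by more than 3-fold. The log2 fold change was -1.74 ± 0.57 (SE, edgeR adjusted p = 0.0332), or 3.35-fold lower. Without 2004 replicate 1, the log2 fold change was -1.07 and the call was lost (adjusted p = 0.160), and without 2004 replicate 2 it was -2.91 (adjusted p = 0.00023).
*pals-5* (C17H1.6, chromosome I, 13130813 to 13132466, - strand) had 17 counts in OP50 replicate 2 and 0 in the other 3 samples. OP50 replicate 1 thus had as few as the 2004 samples, and no difference was detectable. Of the 14 members in this stretch of 61.3 kb, 5 had 0 counts in every sample, namely *pals-7*, *pals-10*, *pals-11*, *pals-12* and *pals-13*. *pals-4*, with 13 and 24 counts with OP50 and 20 and 22 with 2004, was the untested gene of this stretch with counts in every sample. *pals-14* had 18 and 40 counts with OP50 and 11 and 0 with 2004, and *pals-15* had 7 and 6 with OP50 and 12 and 0 with 2004. The 14 genes together had 2.92 and 4.18 CPM in the OP50 samples and 1.49 and 1.34 CPM in the 2004 samples. Those sums did not overlap between the foods, and the part of *pals-6* in them varied: it held 73 of 130 and 105 of 211 counts with OP50, and 12 of 69 and 40 of 62 counts with 2004. *pals-1*, which lies apart on the same chromosome, had 0 and 29 counts with OP50 and 20 and 0 with 2004.

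The other members lie on chromosomes III, IV and V. *pals-34* (F26D11.6, chromosome V, 7955404 to 7956497, - strand) had 66 and 86 counts with OP50, or a mean of 1.59 ± 0.16 CPM (SD, n = 2), and 39 and 38 counts with 2004, or 0.831 ± 0.015 CPM (SD, n = 2). The groups did not overlap, and the log2 fold change of -0.98 ± 0.42 (SE, edgeR adjusted p = 0.0856) lay just short of the 2-fold threshold. With DESeq2 its adjusted p-value was 0.169, and it was between 0.133 and 0.241 with any 1 sample left out.
*pals-33* (W08A12.4, chromosome V, 3673380 to 3676632) had 12 and 19 counts with OP50, whereas neither 2004 library held a count. With each 2004 library set at 3 counts, its mean CPM was 4.99-fold lower than with OP50. *pals-27* (B0284.2, chromosome III, 4381643 to 4384166) had 9 and 11 counts with OP50 and no count with 2004. By the same measure it was 3.24-fold lower. Neither gene reached 0.5 CPM in any sample, so neither was tested. These folds allow for counting error in the libraries without a count, but not for that of the OP50 counts or for other spread between samples. In a fit with no filter *pals-33* was called lower as well (edgeR adjusted p = 0.0511), whereas *pals-27* was not called (edgeR adjusted p = 0.128). *pals-31* had 12 and 35 counts with OP50 and 6 and 5 with 2004, and *pals-26*, next to *pals-27*, had 6 and 24 counts with OP50 and 3 and 6 with 2004.
Of the 21 untested members with a count, 10 (47.6%) had counts with OP50 alone and 1 (4.76%) with 2004 alone, where 30.9% and 17.9% of the 6763 untested sequence names with a count did. For the 4195 untested protein-coding genes with a count, the shares were 27% and 15%. For 7 of the 10 the counts came from OP50 replicate 2, the deepest library, alone. These 7 were 33.3% of the untested members with a count, beside 16.9% over all untested sequence names and 14.2% over untested protein-coding genes with a count. All 28 untested members together came to 2.31 and 5.43 CPM with OP50 and to 2.27 and 1.04 CPM with 2004. OP50 replicate 1 and 2004 replicate 1 were thus nearly level, and the difference between the means came mainly from OP50 replicate 2. *pals-28* and *pals-37* had 0 counts everywhere, and *pals-29*, *pals-30*, *pals-32* and *pals-38* had between 2 and 9 counts in OP50 replicate 2 and 0 elsewhere. *pals-39* had 10 counts in OP50 replicate 2 and 8 in 2004 replicate 2.

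Levels differed between and within the places of the genome that hold the family. When members within 20 kb of each other were joined, the family fell into 11 groups. Of the 13 listed members on chromosome III, 7 were tested, whereas 1 of 15 was tested on chromosome I, 1 of 7 on chromosome V and 0 of 2 on chromosome IV. Within chromosome III, 4 of 4 were tested in the *pals-22* group, 3 of 6 in the *pals-17* group and 0 of 3 in the *pals-26* group. The highest value of any sample was 16.3 CPM on chromosome III, 2.08 CPM on chromosome I, 1.703 CPM on chromosome V and 0.0792 CPM on chromosome IV. Of the 121 protein-coding genes outside the family that lie inside these groups or within 20 kb of them, 39 were tested, with 1 called higher and 6 lower. The shares called over all tested genes were 7.55% and 14.8%, so the number lower lies near the background. The *pals-17* group stands beside well-expressed genes, among them *lelo-2*, with 129 and 133 CPM in the OP50 samples and 118 and 121 CPM in the 2004 samples, and an adjusted p-value of 0.308 (edgeR). Its neighbour *elc-1* was higher with 2004, by less than 2-fold. It had 39.5 and 32.5 CPM with OP50 and 49.6 and 61.0 CPM with 2004 (log2 fold change 0.57, adjusted p = 0.0308, edgeR). Of the 5 tested neighbours of this group, 0 were called. Exons of *pals-3* and *pals-12* overlap by 1185 bases on the same strand and 925 exonic bases of *pals-37* overlap the antisense gene *anr-30*, so counts of these genes could have been divided or shared, as could reads of near-identical copies.

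Genes of the intracellular pathogen response outside the family were set beside it. The list named 18 genes, 2 of which are sequence names of *pals-5* and *pals-6* and were left to the family, so 16 remained. Of these, 7 were tested, 0 were called higher and 1 lower by edgeR, and their median log2 fold change was -0.77. At an unadjusted p-value under 0.05, 0 of the 7 were higher and 4 lower, where 24% and 25.4% of all tested genes were, and DESeq2 and limma-voom also called 0 higher and 1 lower. The gene called lower was *sdz-6*, with 6.15 and 6.71 CPM in the OP50 samples and 0.259 and 0 CPM in the 2004 samples. That difference corresponded to a log2 fold change of -5.67 ± 0.67 (SE, edgeR adjusted p = 0.000164). The size of the difference rested on the 2004 samples, 1 of which held no count and the other 12: it was -4.70 without 2004 replicate 2, and -11.24 without 2004 replicate 1, when no count with 2004 was left.
Subunits of the ubiquitin ligase that acts in this response were measured next. *cul-6*, its cullin, had 2.72 and 4.02 CPM with OP50 and 2.27 and 1.81 CPM with 2004 (log2 fold change -0.77, adjusted p = 0.0848, edgeR, and 0.135 with DESeq2). *rcs-1*, its RING subunit, had 2.78 and 5.35 CPM with OP50 and 2.39 and 1.81 CPM with 2004 (log2 fold change -0.99, adjusted p = 0.0458, edgeR). The 2004 samples lay below the OP50 samples for both genes, and neither reached 2-fold. With 1 sample left out, the adjusted p-value ran from 0.0592 to 0.314 for *cul-6* and from 0.00687 to 0.318 for *rcs-1*, each highest without OP50 replicate 2, and *rcs-1* was called lower without OP50 replicate 1 and without 2004 replicate 1. The adaptor genes *skr-3*, with between 17.7 and 25.6 CPM, and *skr-4*, with between 7.56 and 12.7 CPM, had higher levels, and the groups overlapped for both (adjusted p = 0.251 and 0.482, edgeR), and *skr-5* had between 0 and 0.376 CPM and was not tested. *eol-1*, a gene induced by Orsay virus, had 1.64 and 2.38 CPM with OP50 and 2.27 and 1.27 CPM with 2004 (adjusted p = 0.655, edgeR). The 9 untested genes of the list did not exceed 0.495 CPM in any sample.

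Among 5 regulators of the response outside the family, 0 passed both thresholds in either direction with edgeR, DESeq2 or limma-voom, while 1 was higher and 1 lower at an unadjusted p-value under 0.05. *zip-1*, the bZIP transcription factor needed for part of the response, had 5.86 and 6.36 CPM with OP50 and 5.35 and 5.65 CPM with 2004, a log2 fold change of -0.20 ± 0.25 (SE, edgeR adjusted p = 0.545). *pnp-1*, a purine nucleoside phosphorylase that holds the response down, had 74.4 and 72.3 CPM with OP50 and 46.6 and 43.7 CPM with 2004. Its groups were well separated, at a log2 fold change of -0.76 ± 0.13 (SE, edgeR adjusted p = 0.00131), or 1.69-fold lower. *drh-1*, the RIG-I-like receptor that senses viral RNA, had 16.7 and 21.1 CPM with OP50 and 35.2 and 23.1 CPM with 2004, a log2 fold change of 0.57 ± 0.18 (SE, edgeR adjusted p = 0.0317). Without 2004 replicate 1 its adjusted p-value was 0.329.
*drh-1* also belongs to the RNA interference machinery that acts against viruses. Of 12 such genes named, 10 were listed under these symbols and tested, and their median log2 fold change was 0.52. *drh-3*, which encodes a related helicase, was the 1 gene called higher, with 29.4 and 30.6 CPM with OP50 and 68.7 and 57.1 CPM with 2004 (log2 fold change 1.01, adjusted p = 0.000245, edgeR). Its fold was just above the threshold, and without OP50 replicate 2 or without 2004 replicate 1 it was not called. 8 of the 10 were higher at an adjusted p-value under 0.1 and 0 lower at an unadjusted p-value under 0.05 or by DESeq2 or limma-voom, where 23.9% of all tested genes were higher.
The *chil* genes encode chitinase-like proteins, and *chil-27* is the reporter gene of the response to oomycetes. Of 26 listed, 6 were tested, of which 1 was called higher and 2 lower, with a median log2 fold change of -0.51. Over all tested genes, 7.55% were called higher and 14.8% lower, and the median was -0.028. *chil-27* had 0.277 CPM in OP50 replicate 2 and 0 in the others and was not tested. *chil-9* had no count with OP50 and 149 and 93 counts with 2004 (adjusted p = 8.3e-05, edgeR). With each OP50 library set at 3 counts, its mean CPM was 41.2-fold higher with 2004. *chil-13* had 0.786 and 2.20 CPM with OP50 and 0.388 CPM in both 2004 samples (log2 fold change -1.96, adjusted p = 0.0194, edgeR), and *chil-24* had 3.32 and 5.62 CPM with OP50 and 2.01 and 1.83 CPM with 2004 (log2 fold change -1.26, adjusted p = 0.0126, edgeR). The *chil* list thus held genes called in both directions, and without OP50 replicate 2 *chil-24* (log2 fold change -0.95) was no longer called. *chil-9* did not pass the filter when either 2004 sample was left out, and *chil-13* and *sdz-6* did not when either OP50 sample was left out, so these calls were lost as well.

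**Figure D4:**
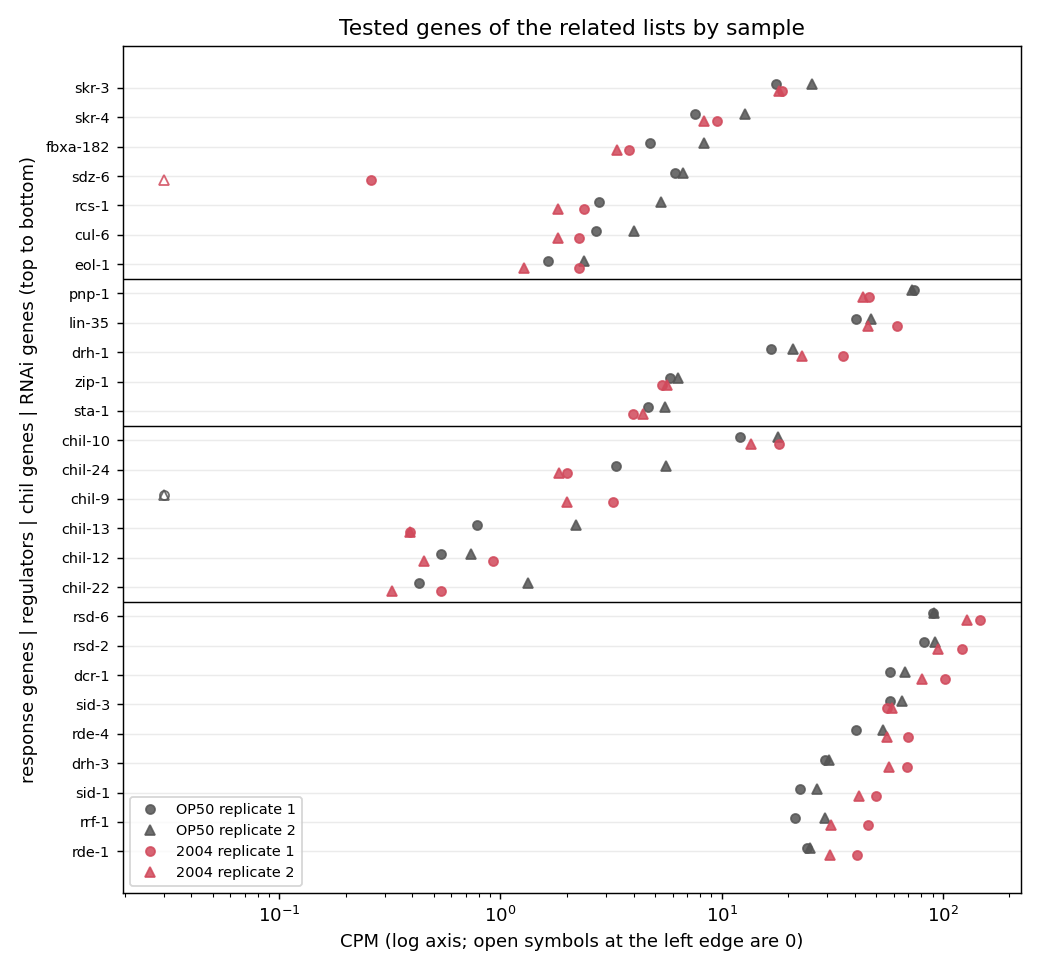
CPM (log axis) of the tested genes of the 4 related lists in each sample, in the order response genes, regulators, *chil* genes and RNA interference genes; open symbols at 0.03 stand for 0 CPM, and *drh-1*, which is in 2 lists, is shown among the regulators. *sdz-6* lies far lower with 2004 and *chil-9* far higher, *pnp-1* is lower without overlap, and the RNA interference genes other than *sid-3* have both 2004 samples above both OP50 samples. The last holds for 37.5% of all tested genes.

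Since many *pals* genes act in the intestine and the epidermis, markers of these tissues, of the germline and of embryos were measured in the same libraries. The 10 intestinal markers summed to 2253 and 2924 CPM with OP50 and to 3760 and 3684 CPM with 2004, with 2 called higher (*vha-6* and *asp-1*) and 0 lower at both thresholds, and *cpr-6* lower by less than 2-fold (log2 fold change -0.91, adjusted p = 0.00529, edgeR). Of the 10 epidermal markers, 6 were tested, with 1 called higher (*col-10*) and 1 lower (*grd-3*), and they summed to 648 and 603 CPM with OP50 and 448 and 460 CPM with 2004. The 10 germline markers summed to 5903 and 4974 CPM with OP50 and 7038 and 7325 CPM with 2004, with 0 called in either direction, although 2 were higher and 1 lower at an unadjusted p-value under 0.05. Of the 10 embryonic markers, 6 were tested, with 2 called higher (*tbx-38* and *ceh-27*) and 0 lower, and *med-1* was at 0 in every sample. They summed to 173 and 163 CPM with OP50 and 157 and 160 CPM with 2004, most of it from *pal-1*. Over all tested genes, 7.55% were called higher and 14.8% lower. *elt-2*, the defining transcription factor of the intestine, was detected in all samples, at 8.55 and 9.92 CPM with OP50 and 11.3 and 9.06 CPM with 2004 (adjusted p = 0.759, edgeR). The sums of the intestinal and germline markers were higher with 2004, and those of the epidermal and embryonic markers lower. Sums without the most abundant gene were added after the data were seen, and the intestinal and epidermal sums then overlapped between the foods. At an adjusted p-value under 0.1 at any fold, 5 of the 10 intestinal markers were higher and 1 lower (edgeR). The shares over all tested genes were 23.9% and 25.2%. Without *asp-1*, the other 9 intestinal markers summed to 1477 and 1634 CPM with OP50 and 1669 and 1543 CPM with 2004, so the foods overlapped. Among those 9 *cpr-6* was the most abundant, with 1045 and 1148 CPM with OP50 and 595 and 608 CPM with 2004. The overlap of the sums thus does not describe each marker. Without *col-19*, the other 9 epidermal markers summed to 162.7 and 175.8 CPM with OP50 and 185.3 and 175.5 CPM with 2004, which overlapped too. Without *cpg-1*, the other 9 germline markers summed to 2878 and 2582 CPM with OP50 and 3533 and 3448 CPM with 2004, still without overlap. The embryonic markers other than *pal-1* summed to 3.64 and 4.18 CPM with OP50 and 9.06 and 8.48 CPM with 2004. Without *pal-1* the direction of the embryonic sum was thus reversed, to higher with 2004 and without overlap. The part of these tissues in the values of the *pals* genes was not tested.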

How the data were processed

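Total RNA of entire wild-type animals was sequenced in 4 samples, 2 per food. Per the labels, the authors used FastQC 0.11.8, Trim Galore 0.6.4, HISAT2 2.1.0 on WBcel235, SAMtools 1.7 and StringTie 2.1.1; the annotation release, read length and strandedness are not given in the sources used here. The deposited values are the authors' estimated counts per transcript, whole numbers without normalization, so no rounding was needed. Since strandedness is unknown, reads of an overlapping or antisense gene may have been counted for its neighbour.

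Counts of the 57834 listed transcripts were summed per sequence name, and 99.5% of the transcripts matched a gene of Ensembl release 115 (11 matched more than 1 and got no symbol). Genes that reached 0.5 CPM in 2 or more samples were tested with edgeR 4.0.16 (TMM, glmQLFit, glmQLFTest) in R 4.3.3, with Benjamini-Hochberg adjustment over all of them and no covariates. A call required an adjusted p below 0.1 together with a difference above 2-fold. Standard errors and 95% intervals come from the quasi-likelihood F statistic. CPM was computed from the deposited counts with each library's own total. The scripts were tested on simulated data. Alternatives were DESeq2 1.42.0, limma-voom (limma 3.58.1), RLE size factors, library size alone, 3 other filters, the replicate number as a block, single transcripts, an adjusted p-value under 0.05, and each sample left out in turn. Leaving 1 sample of a food assumes that it varies like the other food. A chi-square test of the counts gave 82.9 per degree of freedom between the OP50 replicates and 35.6 between the 2004 replicates, which were therefore kept as separate samples. Named were the called members, *pals-22*, *pals-25*, *pals-17*, *pals-16*, *pals-20* and *pals-5*, the 6 highest levels per kb, the 3 largest and smallest fold changes, 8 related genes and called genes of the related lists; other members and related genes were named after their values were seen. The members and lists were chosen with earlier results of these data known. Promoter and protein sequences were not used here.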

Additional observations from a re-analysis of the deposited data

How the results depend on the processing

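With 2 samples per food and few counts per member, the calls on single *pals* genes depended on the settings. Over the alternatives, 0 members were called higher. The number called lower was 2, but 1 with library sizes in place of TMM or with a threshold of 0.05 on the adjusted p, 3 with no filter, 0 per listed transcript, and between 1 and 2 with 1 sample left out. The median log2 fold change of the tested members was -1.21 over the 30 members tested with no filter. That fit takes in members with counts in 1 sample alone, whose estimates are large and uncertain. Examples are *pals-5* (log2 fold change -5.96 ± 3.13, SE) and, in the other direction, *pals-19* (5.31 ± 3.24, SE). This median is therefore not a measure of the size of a change in the family. With 1 sample left out, 3 log2 fold changes that lay below 0 with all samples crossed it: that of *pals-18* ran from -0.68 to 0.034, that of *eol-1* from -0.62 to 0.10 and that of *skr-4* from -0.50 to 0.077. Per listed transcript, 1182 transcripts were called lower, beside 1851 genes. For the response genes outside the family, 0 were called lower with 10 counts required in every sample (median -0.52) and per listed transcript, and between 0 and 2 with 1 sample left out, where the median ran from -0.86 to -0.33. The median of the regulators was 0.053 per listed transcript. For the *chil* genes, 0 were called higher with 10 counts in every sample and 0 lower per listed transcript. Their median was -1.04 with 0.5 CPM in at least 1 sample, -1.51 with no filter and -1.06 with 10 counts in every sample. With 1 sample left out it ran from -0.85 to 0.21, with between 0 and 1 called higher and between 0 and 2 lower. Of the RNA interference genes, between 0 and 1 were called higher with 1 sample left out. The cause of these differences was not tested.

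Whether the replicate numbers pair the samples could not be told. Deviations from the group means had a correlation of -0.11 over 12505 genes between samples with the same number. With 2 samples per food, the deviations within a food are mirror images, so this correlation cannot decide the question. With the replicate number as a block, 2 members were called lower and 0 higher, and the log2 fold changes were -1.93 for *pals-6* and -1.19 for *pals-17*. All members are annotated as protein-coding, so leaving out pseudogenes changed nothing.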
